A study of Nicotiana tabacum with 6 samples.

Results

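Calcineurin B-like proteins (CBL) and their partner kinases (CBL-interacting protein kinases, CIPK) were examined in tobacco seedlings grown with an ample or a low supply of nitrogen. Of the 69500 gene rows in the deposited count table, 104 carried CBL or CIPK followed by a number as their first name, 26 of them CBL and 78 CIPK, under 18 different names. These names were borrowed from other species. The locus tag beside the name was from rice for CBL1, CBL4, CIPK1 and CIPK5 and from Arabidopsis for the other 14 names, and since the 2 species number these genes separately, a number shared with an Arabidopsis gene does not make CBL1, CBL4, CIPK1 or CIPK5 its counterpart. The series compared messenger RNA of cultivated tobacco (Nicotiana tabacum, an allotetraploid in which many genes exist as near-identical copies from both ancestors) under a control nutrient solution with 7.5 mM ammonium nitrate and a low nitrogen solution with 0.75 mM. The treatment ran for 15 days, with the solution renewed every 7 days, and there were 3 libraries in each group. Neither the cultivar, nor whether each library came from separate plants, nor the organ sampled is stated in the labels, which give the material as seedling, so p-values reflect no more than the spread among these libraries, which may be technical.

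CBL proteins are small calcium sensors of plants. When calcium in the cytosol rises, a CBL binds calcium, docks on the regulatory tail of a CIPK and brings the kinase to a membrane, where it phosphorylates channels, carriers and pumps. CIPKs form the plant-specific SnRK3 branch of the SNF1-related kinases. In Arabidopsis the module is best known in roots, where it activates the potassium channel AKT1 at low potassium, the sodium exchanger SOS1 under salt and, by phosphorylation, sets the affinity state of the nitrate transporter NRT1.1 and switches off ammonium transporters of the AMT1 type.

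The libraries held 13027374 to 15620067 counts, and the groups were not equally uniform. Across genes, which are not independent, r was 0.966 between the first and second control and 0.927 and 0.919 between these and control replicate 3. The summed level of 165 leaf photosynthesis genes was 145, 90.9 and 1893 CPM (counts scaled to library size with TMM factors) in control replicates 1, 2 and 3, against 1102, 500 and 192 CPM in low nitrogen replicates 1, 2 and 3. Of their 41 names, CAB40 and RCA were at 0 in every library. The 14 RBCS genes among them summed to 0.825 CPM in control replicate 2, the lowest library. Their sum was 15.9 CPM in control replicate 3, the highest. The flower marker AG1, with 8 genes, summed to at most 0.416 CPM. Root marker genes, from a list of 58, summed to 1577 ± 253 CPM in controls, against 1605 ± 177 in low nitrogen (SD, n = 3). QPT, at 679 to 1051 CPM, gave the largest part of this sum, while PHT1-6 was at 0 in every library but control replicate 3. The list also holds nitrate transporter genes (NRT2.2, NRT2.5 and NRT2.6), and equal root content is not shown by the sum. The part that the unequal level of photosynthesis transcripts plays in the results below was not tested. Since the organ sampled is not stated, the levels below are not shown to be those of whole seedlings. In samples of unsorted tissue, fewer cells of a type and less RNA per cell cannot be told apart.

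Members with lower values in low nitrogen outnumbered members with higher values, and no single gene passed the test. Of the 104 genes, 82 had enough counts to be tested, 59 CIPK and 23 CBL. With edgeR's quasi-likelihood test and Benjamini-Hochberg adjustment over the 38482 genes tested, 0 of the 82 had an adjusted p under 0.05, as was the case for all genes (0%), and the smallest adjusted p among the members was 0.344. At an unadjusted p under 0.05, 12 members were lower in low nitrogen, which is 14.6% of those tested against 5.66% of all tested genes, and 4 were higher, 4.88% against 6.1%. In 16 members every low nitrogen library lay below every control library (19.5%, against 8.54% of all tested genes), and in 7 every low nitrogen library lay above (8.54%, against 9.66%). Copies that share sequence can share reads, so the members are not independent of each other. The count of 4 higher members became 1 when low nitrogen replicate 2 was left out and 7 without low nitrogen replicate 3, while the count of 12 lower members fell to 8 when control replicate 1 was left out and was 15 without low nitrogen replicate 3. DESeq2, run as an alternative, placed 1 member higher (0.754% of all genes with an adjusted p) and 2 lower (0.87%).

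Fold changes, low nitrogen over control, were within 1 log2 unit of 0 in 74 of the 82 members, against 36678 of all 38482 tested genes, and ran from -2.46 to 1.01. They were above 0 in 35 members, or 42.7%, against 50.3% of all tested genes. The median log2 fold change was -0.10 over CIPK genes and -0.04 over CBL genes, against 0.003 over all tested genes. The CIPK median was 0.01 without control replicate 2, and that of CBL genes reached 0.01 without control replicate 3. Summed over all 26 rows, CBL genes gave 279, 317 and 324 CPM in control replicates 1, 2 and 3, against 370, 397 and 320 CPM in low nitrogen replicates 1, 2 and 3. The 78 CIPK rows gave 1604, 1588 and 1411 CPM in control replicates 1, 2 and 3, against 1346, 1446 and 1419 CPM in low nitrogen replicates 1, 2 and 3. Both sums overlapped between the groups.

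**Figure D1:**
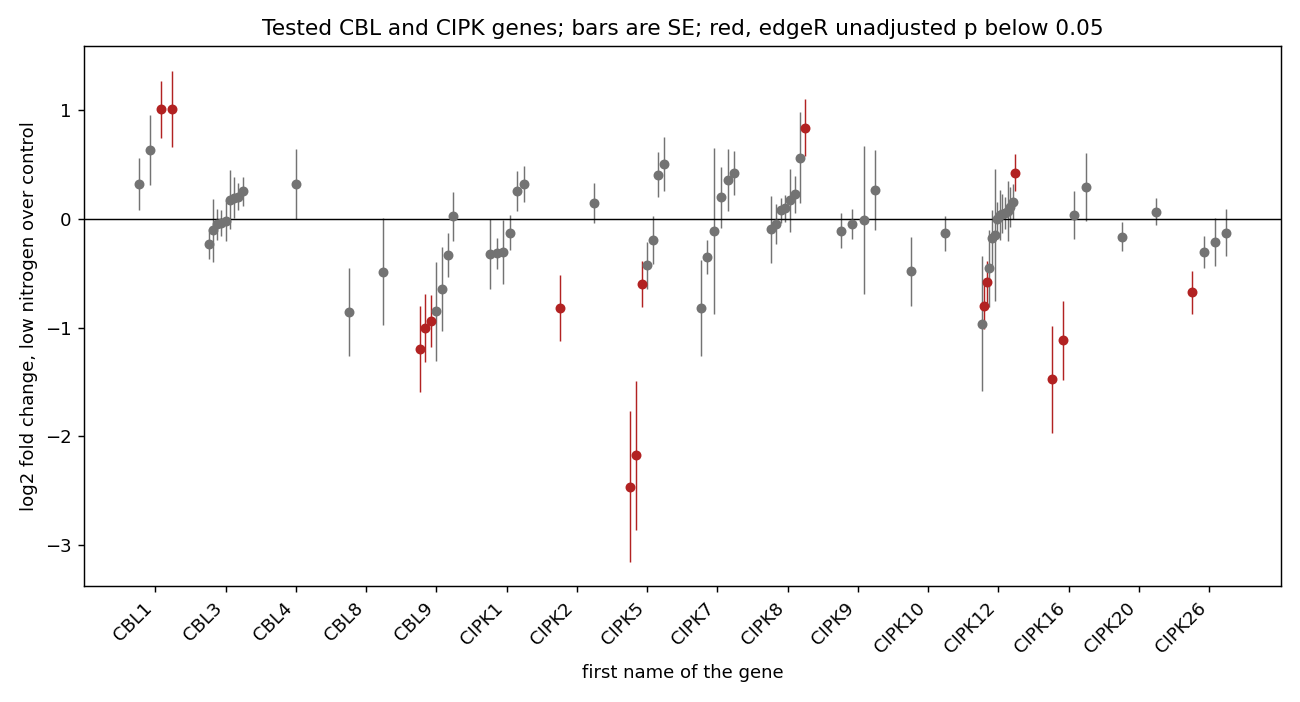
Log2 fold change (low nitrogen over control) of each of the 82 tested CBL and CIPK genes, grouped by first name, with its standard error; red points have an edgeR unadjusted p under 0.05. All 4 CBL1 genes lie above 0, 6 of 7 CBL9 genes lie below 0, and the lowest points are copies of CIPK5 and CIPK16.

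Among the calcium sensors, CBL1 had the highest and CBL9 the lowest median log2 fold change over its tested genes (0.82 and -0.85). In rice, CBL1 works with the kinase CIPK23 to activate the potassium channel AKT1, and in Arabidopsis CBL9 is a plasma membrane sensor that does the same. The CBL1 gene with the most counts (Nitab4.5_0010146g0020) was at 45.3, 50.4 and 82.4 CPM in control replicates 1, 2 and 3, against 131, 131 and 94.8 CPM in low nitrogen replicates 1, 2 and 3. The groups did not overlap, with control replicate 3 the highest of the controls and low nitrogen replicate 3 the lowest of its group. The means were 59.4 ± 20.1 and 119 ± 21.0 CPM (SD, n = 3), giving a log2 fold change of 1.00 (SE 0.26, edgeR adjusted p 0.347). This was the member with a DESeq2 adjusted p under 0.05 among the higher ones (0.0320), and its adjusted p ranged from 0.0320 to 0.853 over the alternatives. Without control replicate 3 and low nitrogen replicate 1, in which photosynthesis transcripts were highest, its log2 fold change was 1.22. What remained was still unequal in these transcripts, at 145 and 90.9 CPM in controls, against 500 and 192 CPM in low nitrogen. Leaving out that pair therefore cannot show what part these transcripts play. The log2 fold change of this gene stayed between 0.84 and 1.30 when any 1 library was left out.

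The other CBL1 genes had fold changes of the same sign with wider overlap. Nitab4.5_0003639g0030 was at 4.14, 2.40 and 3.47 CPM in the controls, against 7.77, 8.43 and 3.95 CPM in low nitrogen (log2 fold change 1.01, SE 0.35), so that low nitrogen replicate 3 lay below control replicate 1. Nitab4.5_0011695g0010 had a log2 fold change of 0.63 (SE 0.32) and Nitab4.5_0000258g0200 one of 0.32 (SE 0.24), and in both the groups overlapped. Taken as a sum of counts over the 4 genes, CBL1 was at 77.0, 99.0 and 125 CPM in the controls, against 199, 213 and 135 CPM in low nitrogen, a log2 fold change of 0.85 (SE 0.23) in a fit on counts summed over each name (edgeR adjusted p 0.333). The summed CBL1 level separated the groups by a narrow margin, since low nitrogen replicate 3 was close to control replicate 3. A test of whether the 4 copies differed from each other in their response gave an adjusted p of 0.937 (edgeR), which does not show that they respond alike.

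CBL9 genes lay the other way. Nitab4.5_0003335g0020 was at 16.5, 13.1 and 9.13 CPM in the controls, against 7.00, 6.87 and 6.31 CPM in low nitrogen, with no overlap (log2 fold change -0.94, SE 0.24, edgeR adjusted p 0.344, the smallest of all members). Nitab4.5_0000185g0230 was at 11.9, 10.1 and 6.73 CPM in the controls, against 3.64, 4.06 and 6.59 CPM in low nitrogen, where the nearest libraries of the groups almost met. Nitab4.5_0005986g0020 was at 7.88, 6.60 and 6.3 CPM in the controls, against 1.82, 2.19 and 5.06 CPM in low nitrogen (log2 fold change -1.20, SE 0.39). All 3 of these genes had an unadjusted p under 0.05. In all, 5 of the 7 CBL9 genes had every low nitrogen library below every control library (71.4%, against 8.54% of all tested genes), the others of these being Nitab4.5_0000185g0240 and Nitab4.5_0008425g0040. This share is a description only. CBL9 was singled out by its low median in the same data, and its copies can share reads and are not independent. Without control replicate 3 and low nitrogen replicate 1, the 3 genes had log2 fold changes of -1.18, -1.06 and -1.01. The exception in sign was Nitab4.5_0004689g0030, at 11.3 ± 2.77 CPM in controls, against 11.5 ± 1.66 CPM in low nitrogen (SD, n = 3).

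Summed over the 7 genes, CBL9 was at 60.5, 51.2 and 52.2 CPM in the controls, against 30.6, 33.3 and 42.0 CPM in low nitrogen, a log2 fold change of -0.64 (SE 0.14, edgeR adjusted p 0.316 in the summed fit). Every low nitrogen library lay below every control library. Without gene lengths, which the table does not carry, the level of CBL1 cannot be set against that of CBL9, but the ratio of the sums can be followed from library to library. As a description, it was 1.27, 1.93 and 2.39 in control replicates 1, 2 and 3 and 6.50, 6.41 and 3.21 in low nitrogen replicates 1, 2 and 3. Since both sums already separated the groups in opposite directions, this ratio had to separate them too and is no further evidence. The ratio of CBL3 to CBL9 was 1.84, 2.33 and 2.44 in controls, against 4.11, 3.77 and 2.91 in low nitrogen. The CBL3 sum overlapped between the groups and varied little (111 to 128 CPM). Its ratio therefore mostly repeats the CBL9 sum and is no further evidence either. Within each group the ratio of CBL1 to CBL9 varied. Control replicate 3, which held the most photosynthesis transcripts of the controls, had the highest control ratio. Low nitrogen replicate 3, which held the fewest of its group, had the lowest ratio there. Control replicate 2, however, held fewer photosynthesis transcripts (90.9 CPM) than control replicate 1 (145 CPM) and had the higher ratio (1.93 against 1.27). A relation between the ratio and these transcripts was not tested.

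**Figure D2:**
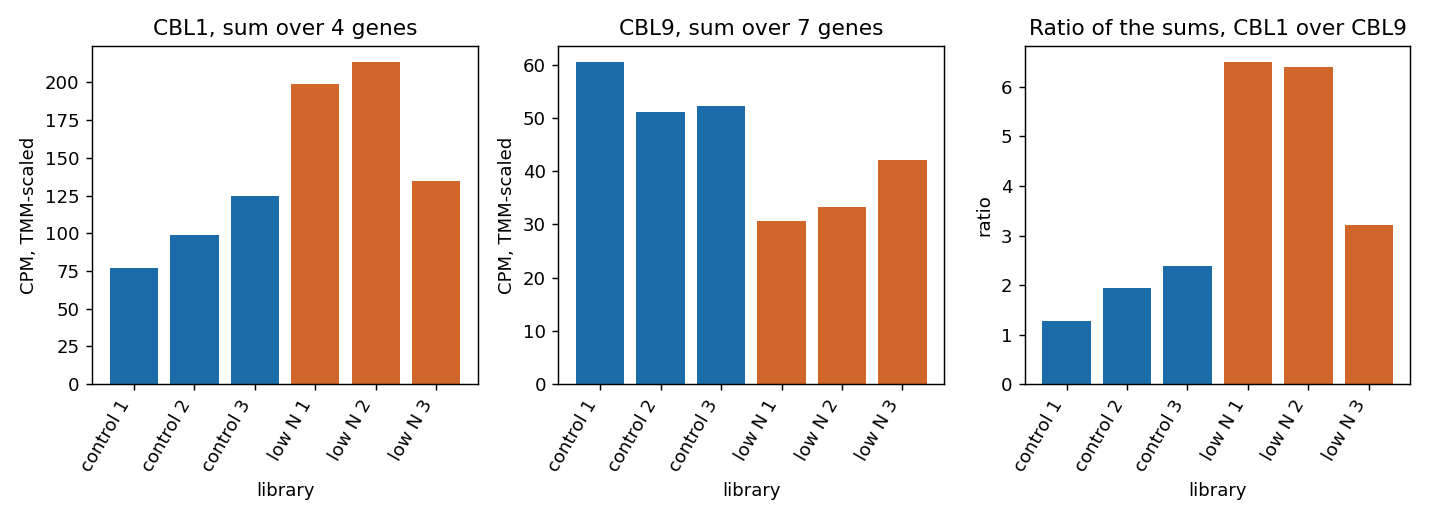
Summed TMM-scaled CPM of the 4 CBL1 genes (left) and the 7 CBL9 genes (middle), and the ratio of these sums (right), as bars for each of the 3 control (blue) and 3 low nitrogen (orange) libraries. CBL1 runs from 77.0 to 125 CPM in controls, against from 135 to 213 CPM in low nitrogen, CBL9 from 51.2 to 60.5 and from 30.6 to 42.0 CPM, and the ratio from 1.27 to 2.39 and from 3.21 to 6.50.

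CBL3, which in Arabidopsis sits on the vacuolar membrane, had 10 genes, 9 of them tested, with fold changes between -0.23 and 0.25 and 0 at an unadjusted p under 0.05. Its summed level was 119 ± 8.04 CPM in controls, against 124 ± 1.91 CPM in low nitrogen (SD, n = 3). The CBL3 genes with no overlap were Nitab4.5_0003130g0070 (27.7 ± 1.06 and 31.8 ± 2.94 CPM) and Nitab4.5_0003328g0070 (12.5 ± 0.380 and 14.8 ± 0.963 CPM), both higher in low nitrogen, and Nitab4.5_0000152g0400 (17.4 ± 1.82 and 14.9 ± 0.994 CPM), lower. CBL8 was uneven among the controls: Nitab4.5_0004010g0020 was at 23.0, 38.3 and 12.04 CPM there and at 9.93, 17.0 and 13.4 CPM in low nitrogen (log2 fold change -0.86, SE 0.41). Nitab4.5_0004515g0040 was at -0.49 (SE 0.49). The groups overlapped in both. The CBL8 sum was 29.6 ± 15.2 CPM in controls, against 17.3 ± 5.13 CPM in low nitrogen (SD, n = 3), and its log2 fold change in the summed fit, -0.78 (SE 0.40, edgeR adjusted p 0.426), lay further from 0 than that of CBL9, with a larger error. CBL4, the rice counterpart of the salt sensor SOS3, had a single tested gene, Nitab4.5_0008214g0020, at 2.41 ± 0.801 and 3.004 ± 0.519 CPM.

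**Figure D3:**
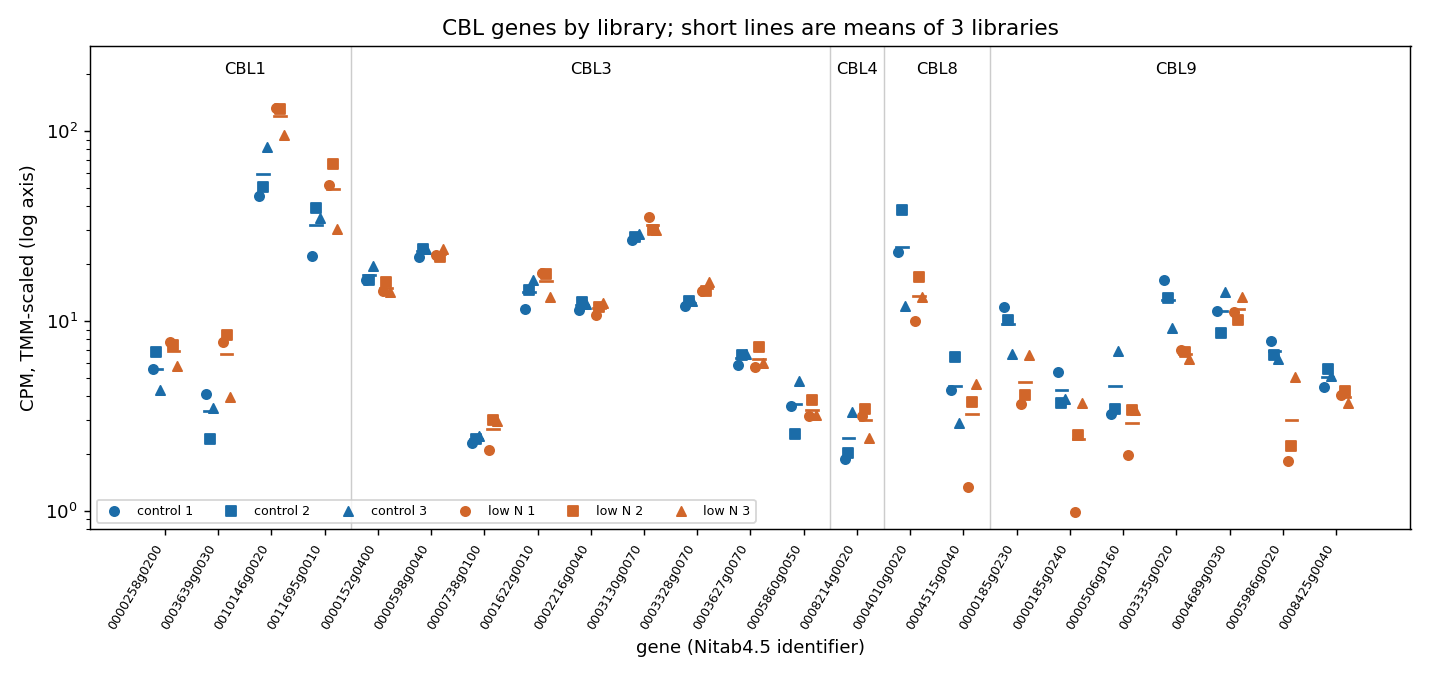
TMM-scaled CPM (log axis) of the 23 tested CBL genes in each library, grouped by name; blue marks are control and orange marks low nitrogen libraries, symbols give the replicate number and short lines the means of 3 libraries. The means of CBL1 genes are higher in low nitrogen, though the groups overlap in all of these genes but Nitab4.5_0010146g0020. The means of most CBL9 genes are lower, and the libraries of each CBL3 gene stay close together.

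Among the kinases, CIPK5 had the lowest fold changes of all members together with copies above 0. Of its 16 genes 7 were tested, and the remaining 9 held 0 to 16 counts each over all libraries. Nitab4.5_0001478g0040 was at 101, 41.2 and 13.3 CPM in control replicates 1, 2 and 3, against 5.39, 10.7 and 12 CPM in low nitrogen replicates 1, 2 and 3. Nitab4.5_0002315g0110 was at 63.3, 19.2 and 11.8 CPM in the controls, against 3.36, 11.1 and 6.38 CPM in low nitrogen. In both, control replicate 1 was far above the other controls, and control replicate 3 was close to the low nitrogen libraries without overlapping them. The log2 fold changes were -2.46 (SE 0.69) and -2.17 (SE 0.69), with edgeR adjusted p of 0.358 and 0.373, and these were the genes that DESeq2 placed lower (adjusted p 0.00679 and 0.0297). Over the alternatives their adjusted p ran from 0.00679 to 0.853 and from 0.0297 to 0.853. Without control replicate 1 the log2 fold changes were -1.55 and -1.17.

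Other CIPK5 genes did not share this pattern. Nitab4.5_0002348g0030 was at 37.4, 67.2 and 65.1 CPM in the controls, against 70.7, 96.2 and 73.5 CPM in low nitrogen, with control replicate 1 the lowest library and no overlap (log2 fold change 0.50, SE 0.25). Nitab4.5_0002279g0100 was at 12.9, 12.3 and 13.3 CPM in the controls, against 7.56, 6.81 and 11.1 CPM in low nitrogen, with controls that lay close together (log2 fold change -0.60, SE 0.21). The CIPK5 gene with the most counts, Nitab4.5_0004815g0040, overlapped widely, at 111 ± 6.26 CPM in controls, against 96.8 ± 29.8 CPM in low nitrogen (SD, n = 3). As a share of all CIPK5 counts, Nitab4.5_0001478g0040 took 25.9%, 13.4% and 5.08% in the controls and 2.45%, 3.97% and 4.15% in low nitrogen, whereas Nitab4.5_0002348g0030 took 9.62%, 21.8% and 24.9% and then 32.1%, 35.6% and 25.4%.

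The copies of CIPK5 differed from each other in their fold change, by a test of copy by group run over all 6713 names with at least 2 tested copies (edgeR adjusted p 0.0267). Of the 15 CBL and CIPK names in this test, 1, CIPK5, passed the threshold, against 1.47% of all names, and 3, with CIPK2 and CIPK16, had an unadjusted p under 0.05, against 10.7% of all names. The call ended without control replicate 1 (adjusted p 0.650) or 2 (0.113), without low nitrogen replicate 1 (0.582), 2 (0.171) or 3 (0.0925), and without the genes Nitab4.5_0001478g0040 and Nitab4.5_0002315g0110 (0.280, chosen after seeing the data). It held without control replicate 3 (0.000960). In that setting the copies of CIPK1 (edgeR adjusted p 0.00263) and CIPK16 (0.0348) passed the threshold too. CIPK1 also passed without low nitrogen replicate 1 (0.0347) and without these 2 libraries together (0.00165), but not with all libraries (0.502).

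**Figure D4:**
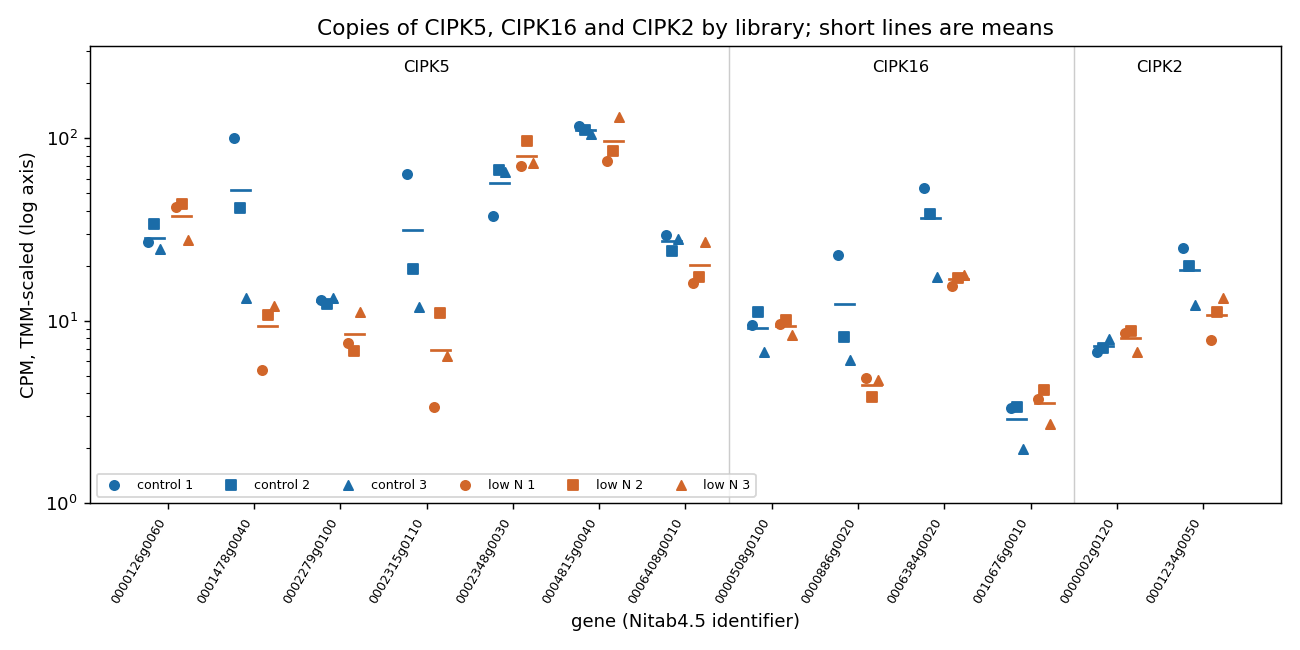
TMM-scaled CPM (log axis) of the tested CIPK5, CIPK16 and CIPK2 genes in each library; blue marks are control and orange marks low nitrogen libraries, symbols give the replicate number and short lines the means of 3 libraries. Nitab4.5_0001478g0040 runs from 13.3 to 101 CPM within the controls, while Nitab4.5_0002348g0030 is lowest in control replicate 1.

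CIPK16, known in Arabidopsis as a regulator of the potassium channel AKT1 and of salt tolerance, had a similar spread among controls. Nitab4.5_0006384g0020 was at 53.6, 38.6 and 17.4 CPM in the controls, against 15.4, 17.2 and 17.9 CPM in low nitrogen (log2 fold change -1.12, SE 0.37, edgeR adjusted p 0.381). The low nitrogen libraries were tightly grouped and control replicate 3 fell among them. Nitab4.5_0000886g0020 was at 23.0, 8.10 and 6.09 CPM in the controls, against 4.83, 3.81 and 4.72 CPM in low nitrogen, with no overlap (log2 fold change -1.47, SE 0.49, and -0.68 without control replicate 1). Nitab4.5_0000508g0100 and Nitab4.5_0010676g0010 had log2 fold changes of 0.03 (SE 0.22) and 0.29 (SE 0.31). In the same direction as the first pair, the CIPK2 gene Nitab4.5_0001234g0050 was at 25.0, 19.96 and 12.2 CPM in the controls, against 7.84, 11.2 and 13.3 CPM in low nitrogen, with overlap.

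CIPK12, which in Arabidopsis acts with vacuolar CBLs in pollen tube growth, was the largest tested group with 14 genes, 7 on either side of 0. Nitab4.5_0004880g0010 was at 45.5, 30.1 and 27.8 CPM in the controls, against 18.5, 22.2 and 18.5 CPM in low nitrogen (log2 fold change -0.80, SE 0.21, edgeR adjusted p 0.350), with no overlap. Nitab4.5_0001060g0060 was also lower without overlap, at 22.8 ± 5.45 and 15.2 ± 1.61 CPM. In the opposite direction, Nitab4.5_0012103g0010 was at 36.6, 39.2 and 26.3 CPM in the controls, against 46.9, 42.8 and 46.8 CPM in low nitrogen, where every library exceeded every control (log2 fold change 0.42, SE 0.17). The summed level of CIPK12 was 264 ± 40.8 CPM in controls, against 253 ± 7.99 CPM in low nitrogen (SD, n = 3), and the test for differing copies gave an edgeR adjusted p of 0.633.

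CIPK8, a kinase that in Arabidopsis takes part in the response to nitrate, had 8 tested genes, 6 of them above 0. The single one at an unadjusted p under 0.05 was Nitab4.5_0004209g0010, at 3.005, 2.78 and 3.61 CPM in the controls, against 6.37, 6.31 and 4.09 CPM in low nitrogen (log2 fold change 0.83, SE 0.26, edgeR adjusted p 0.373). No library overlapped, although the levels were low. The CIPK8 genes with more counts differed little, with log2 fold changes of 0.08 (SE 0.12) for Nitab4.5_0001558g0080 and 0.10 (SE 0.12) for Nitab4.5_0010725g0030. CIPK26, which in Arabidopsis phosphorylates the NADPH oxidase RBOHF, had 4 tested genes, all below 0. Its Nitab4.5_0000492g0230 was at 12.7, 12.4 and 12.04 CPM in the controls, against 8.40, 8.87 and 5.90 CPM in low nitrogen (log2 fold change -0.68, SE 0.19, edgeR adjusted p 0.361). The controls of that gene lay close together and the groups did not overlap. Nitab4.5_0013347g0020 was also lower without overlap, at 25.8 ± 3.28 and 20.8 ± 1.97 CPM (SD, n = 3).

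The kinase genes with the most counts were those of CIPK9, which in Arabidopsis acts at low potassium. Nitab4.5_0001930g0020 was at 160, 194 and 191 CPM in the controls, against 156, 158 and 191 CPM in low nitrogen, and Nitab4.5_0004752g0030 at 145, 162 and 152 and at 135, 151 and 158 CPM. Both overlapped widely, with log2 fold changes of -0.11 (SE 0.16) and -0.05 (SE 0.14). CIPK7, linked in Arabidopsis to cold, had genes on both sides: Nitab4.5_0001856g0050 was at 40.4 ± 1.93 and 31.7 ± 5.88 CPM and Nitab4.5_0007710g0010 at 6.93 ± 1.24 and 9.28 ± 1.07 CPM, each without overlap. CIPK20, an abscisic acid-responsive kinase in Arabidopsis, summed to 62.9 ± 1.28 and 61.1 ± 1.39 CPM. CIPK10 and CIPK1 sums were at 28.6 ± 3.14 and 23.3 ± 5.48 CPM and at 113 ± 10.8 and 117 ± 9.35 CPM (SD, n = 3). Within CIPK1, Nitab4.5_0000745g0130 was lower without overlap, at 32.7 ± 4.68 and 26.3 ± 1.60 CPM. Of the 6 tested CIPK1 genes 2 lay above 0 and 4 below. The highest, Nitab4.5_0000895g0250, had a log2 fold change of 0.32 (SE 0.17), with overlap.

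The 22 members that were not tested held at most 84 counts each over the 6 libraries, and 10 of them held 0. The one with the most counts, the CIPK1 gene Nitab4.5_0023706g0010, held 0, 0 and 3 counts in the controls and 7, 30 and 44 in low nitrogen. Scaled for depth, low nitrogen over control was 24.01 (exact Clopper-Pearson 95% bounds 7.93 and 119). These bounds cover counting error, not the spread between libraries, in which low nitrogen replicate 1 was much lower than the others. It was picked out after its values were seen. Others held fewer counts that were also unequal: CIPK16 Nitab4.5_0008153g0010 held 36 in controls against 15 in low nitrogen, CIPK2 Nitab4.5_0001060g0050 held 13 against 27, and CIPK2 Nitab4.5_0004880g0030 held 16 against 7. The single CIPK19 gene held 0 counts and the single CIPK21 gene 3 counts in each group. The second CBL4 gene held 9 counts, all in control replicate 3.

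Identifiers that share a scaffold number lie on the same assembled sequence, and 26 members did so in 13 pairs, 6 of them with both genes tested. The CBL9 neighbours Nitab4.5_0000185g0230 and Nitab4.5_0000185g0240 both had every low nitrogen library below every control library, with log2 fold changes of -1.005 and -0.85. The CIPK8 pair Nitab4.5_0004209g0010 and Nitab4.5_0004209g0020 was at 0.83 and 0.56, and the CIPK12 and CIPK2 pair Nitab4.5_0001234g0010 and Nitab4.5_0001234g0050 at -0.46 and -0.82. The CIPK1 pair Nitab4.5_0000745g0090 and Nitab4.5_0000745g0130 was at -0.31 and -0.32. The CIPK2 and CIPK12 pair Nitab4.5_0000002g0120 and Nitab4.5_0000002g0160 was at 0.15 and 0.07, and the CIPK8 pair Nitab4.5_0010725g0030 and Nitab4.5_0010725g0040 at 0.10 and -0.05. Neighbours of one name may also share reads, and the labels do not say how reads were divided between them.

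The proteins on which CBL and CIPK act, and the other calcium sensors, were read from the same fit, in which 0 genes of any of these lists had an edgeR adjusted p under 0.05. Among potassium and sodium carriers, 2 of 36 tested genes lay higher (5.56%, against 6.1% of all tested genes) and 1 lay lower (2.78%, against 5.66%) with an unadjusted p under 0.05, shares at or below those of all genes. NHX4 (Nitab4.5_0000245g0110), a vacuolar sodium exchanger, was at 3.90, 3.68 and 8.07 CPM in controls, against 19.5, 11.6 and 10.7 CPM in low nitrogen, and POT5 (Nitab4.5_0001965g0010), a high-affinity potassium carrier, at 3.34 ± 1.18 and 1.13 ± 0.388 CPM. Neither gene overlapped between the groups. Of 15 ammonium carriers and SLAC1-type anion channels, 4 were higher (26.7%, against 6.1% of all tested genes) and 3 lower (20%, against 5.66%). AMT1-3 (Nitab4.5_0003474g0010) was at 51.9 ± 7.45 and 84.3 ± 9.31 CPM, without overlap, and SLAC1 (Nitab4.5_0000900g0050) at 15.5 ± 14.2 and 3.78 ± 1.87 CPM (SD, n = 3). For SLAC1 the groups overlapped, with 10.6, 31.6 and 4.39 CPM in controls, against 2.38, 3.06 and 5.90 CPM in low nitrogen. Of 23 proton pumps and NADPH oxidases, 2 were higher and 3 lower (8.7% and 13%, against 6.1% and 5.66% of all tested genes). A gene of the proton pump AHA11 (Nitab4.5_0011731g0020) was at 50.4 ± 15.2 and 96.0 ± 25.8 CPM. Another AHA11 gene, which had the most counts of this list (Nitab4.5_0000909g0030), was at 181 ± 13.9 and 181 ± 20.4 CPM, with overlap. The NADPH oxidase RBOHB (Nitab4.5_0006988g0020) lay among the 3 lower ones. Its level was 250, 78.3 and 27.8 CPM in control replicates 1, 2 and 3, against 5.88, 5.75 and 21.4 CPM in low nitrogen.

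Clade A protein phosphatases of the PP2C type hold SnRK2 kinases inactive when abscisic acid is absent, and some of them bind CIPKs in Arabidopsis. Only genes named HAB1 or HAB2 stood for this clade here, and all 8 were above 0. Copies of a name can share reads, so these genes are not independent of each other. The 8 tested HAB1 and HAB2 genes had a median log2 fold change of 0.30, 4 were higher at an unadjusted p under 0.05 (against 6.1% of all tested genes), and in 6 every low nitrogen library lay above every control library (against 9.66%). HAB1 (Nitab4.5_0013277g0010) was at 25.7, 32.5 and 26.6 CPM in controls, against 39.9, 45.7 and 41.8 CPM in low nitrogen (log2 fold change 0.59, SE 0.14, edgeR adjusted p 0.332). Their summed level was 185 ± 17.5 CPM in controls, against 236 ± 8.40 CPM in low nitrogen (SD, n = 3). SnRK2 kinases, with 1 of 27 higher and 1 lower (3.7% each, against 6.1% and 5.66% of all tested genes), had a median log2 fold change of -0.01.

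Among other calcium decoders, calmodulins and calmodulin-like proteins had 13 of 73 tested genes lower (17.8%, against 5.66% of all tested genes) and 1 higher (1.37%, against 6.1%) at an unadjusted p under 0.05, with a median log2 fold change of -0.21. CML1 (Nitab4.5_0001580g0040) was at 16.8, 17.3 and 15.7 CPM in controls, against 8.68, 9.18 and 9.02 CPM in low nitrogen, a difference well beyond the spread in either group (log2 fold change -0.89, SE 0.13, edgeR adjusted p 0.242). CML38 (Nitab4.5_0001101g0050) was at 0.430 ± 0.0688 and 2.64 ± 1.48 CPM. Of 61 calcium-dependent protein kinases, 3 lay in each direction (4.92%, near the 6.1% higher and 5.66% lower of all tested genes), among them CPK24 (Nitab4.5_0000303g0160) at 6.03 ± 1.09 and 10.2 ± 0.907 CPM and CPK13 (Nitab4.5_0007414g0030) at 23.9 ± 4.43 and 16.7 ± 2.22 CPM. Of 133 calcium channels, pumps, exchangers and annexins, 10 were higher and 6 lower (7.52% and 4.51%, near the 6.1% and 5.66% of all tested genes). CAX4 (Nitab4.5_0000511g0060), a vacuolar proton-coupled exchanger, was at 16.4, 48.2 and 52.3 CPM in controls, against 9.65, 11.99 and 7.56 CPM in low nitrogen, with no overlap (log2 fold change -2.0, SE 0.43, edgeR adjusted p 0.332). CNGC15 (Nitab4.5_0000602g0030), a cation channel, was at 14.0 ± 0.646 and 19.8 ± 2.19 CPM. In DESeq2, run as an alternative, NHX4 (adjusted p 0.0389), AMT1-3 (0.0257), RBOHB (0.0466), CML38 (0.00995), CML1 (0.000595) and CAX4 (0.000686) had an adjusted p under 0.05. Of 21 CBP60B genes, named after calmodulin-binding factors, 1 was higher and 2 were lower (4.76% and 9.52%, against 6.1% and 5.66% of all tested genes).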

How the data were processed

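Polyadenylated RNA of 3 control and 3 low nitrogen libraries was sequenced after SMARTer library preparation, per the labels' protocols. The authors deposited whole-number read counts per gene. Per the submitters' processing notes, HISAT2 was used. The version of it, the genome build, how reads were counted, whether strand was used and how reads shared between copies were treated are not stated in the labels. Genes were matched by the first name in the table's own symbol column. No identifier matched the RefSeq table at hand, so no sequence or coordinate is given.

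Counts were fitted with edgeR 4.0.16 in R 4.3.3 (filterByExpr, TMM factors, quasi-likelihood test, no covariate), with Benjamini-Hochberg adjustment over the 38482 genes kept and a threshold of 0.05. The standard error is the fold change divided by the square root of F. CPM are TMM-scaled. Differences between copies were tested with edgeR's diffSpliceDGE, taking the first name as the unit and its genes as parts, and counts summed over each name were fitted separately. Alternatives were RLE and upper-quartile factors, no filter or at least 1 CPM in 3 libraries, a block for the replicate number, DESeq2 1.42.0, limma-voom (limma 3.58.1) and leaving out each library. The fits were also run on simulated counts drawn independently for each gene and library. These counts held no unequal tissue content and no reads shared between copies, so that run does not cover either.

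The members and lists were chosen with earlier results of these data known. List patterns were trimmed to the spelling of the symbol column; the lists are the carriers, pumps, kinases, phosphatases, calcium sensors and channels of the report and the leaf, root and flower markers. Members named by rule were those with an unadjusted p under 0.05, a DESeq2 adjusted p under 0.05, or no overlap at a mean of at least 1 CPM. Those with the most counts and the extremes of a name were named too. Other members were added to describe a name, a scaffold pair or the genes not tested. From each list, the gene with the smallest p in each direction and the one with the most counts could be named. Library totals, 13027374 to 15620067 counts, set the counting precision.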

Additional observations from a re-analysis of the deposited data

How the results depend on the processing

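With 3 libraries a group, the number of calls depended on the tool and on single libraries. Over all genes, 0 passed edgeR's adjusted threshold, against 588 with DESeq2 and 0 to 11 when 1 library was left out (11 without control replicate 3). Among the members 0 passed, against 3 with DESeq2. Members higher at an unadjusted p under 0.05 numbered 4, and 1 to 7 with 1 library left out. The median of CIPK genes was -0.101 to 0.012 with 1 library left out, and that of CBL genes was 0.039 without control replicate 3 and low nitrogen replicate 1 together. Names whose copies differed numbered 1, and 0 to 3 with 1 library left out, 0 without the CIPK5 genes Nitab4.5_0001478g0040 and Nitab4.5_0002315g0110, and 2 without both libraries. For this test of copies, both of these last settings were added after seeing the data, and upper-quartile factors and the fit with no filter were not run. The cause of these changes was not tested.

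The labels do not say whether the replicate numbers pair the libraries. Across genes, the deviations of same-numbered libraries from their group means correlated at -0.316, 0.104 and -0.274. Deviations within a group of 3 sum to 0, which ties such correlations to each other, so they cannot decide whether libraries were paired. With the replicate block, 0 members passed the threshold, unadjusted p under 0.05 was reached by 4 higher and 10 lower members, and 0 names had differing copies (CIPK5 adjusted p 0.585).

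The sign was followed only for the 32 members picked by p-value, lack of overlap or counts. Of these 32 members, 24 kept their sign under every alternative. The others are small or differ from the sum of their name. CIPK12 Nitab4.5_0013015g0020 ran from -0.097 to 0.150 with 1 library left out and was -0.043 without both libraries, CIPK7 Nitab4.5_0007585g0030 ran from -0.143 to 0.378 and was -0.018, and CIPK9 Nitab4.5_0004752g0030 ran from -0.0997 to 0.00096. With counts summed over the name, the log2 fold change was 0.050 for CBL3 (Nitab4.5_0000152g0400), 0.043 for CIPK1 (Nitab4.5_0000745g0130), -0.31 for CIPK5 (Nitab4.5_0002348g0030), -0.024 for CIPK7 (Nitab4.5_0007585g0030 and Nitab4.5_0007710g0010) and -0.071 for CIPK12 (Nitab4.5_0012103g0010 and Nitab4.5_0013015g0020).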
